A study of Homo sapiens with 9 samples.

Results

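The oligoadenylate synthetase (OAS) family of SUIT2 cells, an established human pancreatic cancer cell line, was described by the 4 genes OAS1, OAS2, OAS3 and OASL, taken by their gene symbols from 59609 genes in the deposited count table. RNA sequencing had been run on 9 libraries in 3 groups of 3: control-treated cells, cells given human interferon beta (IFNβ) at 100 U/mL for 6 h, and cells given the same dose for 24 h. In every group 500000 cells had been plated in each well of a 6-well plate, and the medium was exchanged 24 h later. No time is labelled for the control group, so a difference from control cannot be told apart from an effect of time since that exchange. The same holds for a difference between the 6 h and 24 h groups, since no control is labelled for each time. The labels do not say whether replicates were separate cultures, and p-values then measure only the spread between these libraries, which may be technical. The study asks which transcripts change after a short and a long exposure to this type I interferon.

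The enzymes OAS1, OAS2 and OAS3 bind double-stranded RNA and then join ATP into short oligoadenylates, messengers that set off the decay of viral and cellular RNA. OASL is related to them in sequence but lacks the synthetase activity, carries ubiquitin-like domains at its end and is known to assist the RNA sensor RIG-I. All of them are textbook interferon-stimulated genes, driven through the interferon receptor by ISGF3, a complex that holds STAT2 and IRF9 and binds an interferon-stimulated response element in their promoters.

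OAS1, OAS3 and OAS2 lie in tandem on the plus strand of chromosome 12 (hg38, as the deposited table gives them), at 112906783 to 112933223, 112938444 to 112973252 and 112978395 to 113011724. Gaps of 5.22 kb and 5.14 kb separate them. OASL lies on the minus strand of the same chromosome, 8.01 Mb further on, at 121019111 to 121039243. In the GENCODE 29 annotation the longest coding sequence had 414 codons over 6 exons in OAS1, 726 codons over 12 exons in OAS2, 1087 codons over 16 exons in OAS3 and 514 codons over 6 exons in OASL. The synthetase unit is known to be single in OAS1 and repeated in OAS2 and OAS3, and the lengths follow that order.

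Promoters are shown because the interferon-stimulated response element of these genes is known to lie there. Sequences came from RefSeq on GRCh38.p14 and are shown for OAS1 and OAS3, and not for OAS2 and OASL. The 250 bases before the RefSeq start of each gene and 50 after it were searched. That start, at 112906962 for OAS1 and 112938474 for OAS3, lies 179 and 30 bases inside the gene as the deposited table places it. Shown 5′ to 3′ on the plus strand are the 30 bases before the RefSeq start of each gene, at chr12:112906932-112906961 for OAS1 and chr12:112938444-112938473 for OAS3, which are inside the deposited genes. For OAS3 the stretch before the deposited start is shown as well, at chr12:112938224-112938443. Capitals mark matches to GAAANNGAAA, the core of the interferon-stimulated response element, or to GAAANGAAA, the same pair of GAAA units set 1 base closer, a form chosen after the sequences had been seen.
OAS1 site: cctcccttctgagGAAACGAAAccaacagc
OAS3 site: gttcggagagccgggcggGAAAACGAAAcc
OAS3 upstream: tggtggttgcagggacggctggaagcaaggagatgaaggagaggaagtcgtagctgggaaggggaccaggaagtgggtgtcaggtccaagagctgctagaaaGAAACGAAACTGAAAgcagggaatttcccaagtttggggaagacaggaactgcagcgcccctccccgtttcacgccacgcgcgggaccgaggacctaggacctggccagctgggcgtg
OAS1 held GAAACGAAA at positions -17 to -9 from the RefSeq start. OAS3 held GAAAACGAAA at -12 to -3, and further up GAAACGAAA at -148 to -140, which overlaps GAAACTGAAA at -143 to -134. Over both strands of all 35116 promoter windows of 300 bases (250 before the start and 50 after), 3.57% held the first form, 3.12% the second and 6.4% either. These are matches of letters only, and no binding was measured here.

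Total estimated counts per library were 15101734 to 19632741 (control), 16799278 to 37420457 (6 h) and 25270387 to 40384407 (24 h). All 6 ductal epithelial markers looked at (keratins 7, 8, 18 and 19, EPCAM and CDH1) were expressed, at a summed 4834 to 4897 CPM (counts scaled to the TMM-normalized library size) in control libraries, 5455 to 5762 at 6 h and 5352 to 5477 at 24 h. The leukocyte markers PTPRC, CD3E and NKG7 and the plasmacytoid dendritic marker CLEC4C were at 0 in every library. The summed CPM of the 6 leukocyte markers looked at, of which 2 passed the filter, was 225 to 229 (control), 254 to 267 (6 h) and 317 to 341 (24 h), and that of the 3 plasmacytoid markers, of which 1 passed, was 2.35 to 2.42, 15.3 to 17.1 and 7.57 to 7.88 in the same order. None of the 50-base words in a member's annotated transcripts occurred in another member. Words shared with any other gene made up 1.07% of those of OAS1, 0.615% of OAS3 and 0 of OAS2 and OASL. A long noncoding RNA annotated on the opposite strand across all 3 clustered genes, AC004551.1, had summed counts of 0, 4 and 2 in the control, 6 h and 24 h groups. The sources used here do not give a strand setting for the counting, so antisense reads inside the OAS exons could not be told apart from sense reads.

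The first comparison, 6 h against control, asks how far each member rose early. All 4 members rose, by 18.4-fold to 93.8-fold, and OAS2 rose the most. The background was 17.5% of 16964 tested genes called higher and 15.4% called lower by edgeR's quasi-likelihood test at an adjusted p of 0.05 (Benjamini-Hochberg over all genes tested). Control and 6 h libraries did not overlap for any member, with all 6 h libraries higher, as was the case for 21.3% of tested genes. The members' median log2 fold change was 5.28, against -0.01 over all tested genes.

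OAS1, the smallest synthetase, stood at 41.8, 44.5 and 43.9 CPM in the 3 control libraries and at 996, 1013 and 991 CPM at 6 h. The lowest treated library was thus far above the highest control, and the 3 treated libraries lay close together. The log2 fold change was 4.53 (SE 0.03), a 23.0-fold rise with adjusted p = 3.19e-20 by edgeR. OAS1 ranked 84th from the top of all tested genes by fold change.

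OAS2, the synthetase of middle size, had 15.9, 16.2 and 19.8 CPM in control and 1629, 1593 and 1628 CPM at 6 h. Control library 3 was the highest of its group, and the groups were far apart. The log2 fold change was 6.55 (SE 0.05), and the adjusted p was 1.00e-19 by edgeR. It ranked 30th of all tested genes.

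OAS3, the largest synthetase and the one known to be activated most readily by long double-stranded RNA, had 107, 123 and 131 CPM in control and 2228, 2178 and 2237 CPM at 6 h. It was the smallest rise of the 4, from the highest starting count level. The log2 fold change was 4.21 (SE 0.05), with adjusted p = 3.64e-18 by edgeR, at rank 101.

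OASL, the member without synthetase activity, had 6.17, 5.99 and 7.04 CPM in control and 413, 431 and 403 CPM at 6 h. It started from 103, 119 and 108 estimated counts, so the control level rests on fewer reads than that of the others. The rise was 65.2-fold, or 6.03 (SE 0.06) on the log2 scale, with adjusted p = 5.56e-19 by edgeR, at rank 39. In bulk RNA a larger share of responding cells and more transcript per cell cannot be told apart, here and below.

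**Figure D1:**
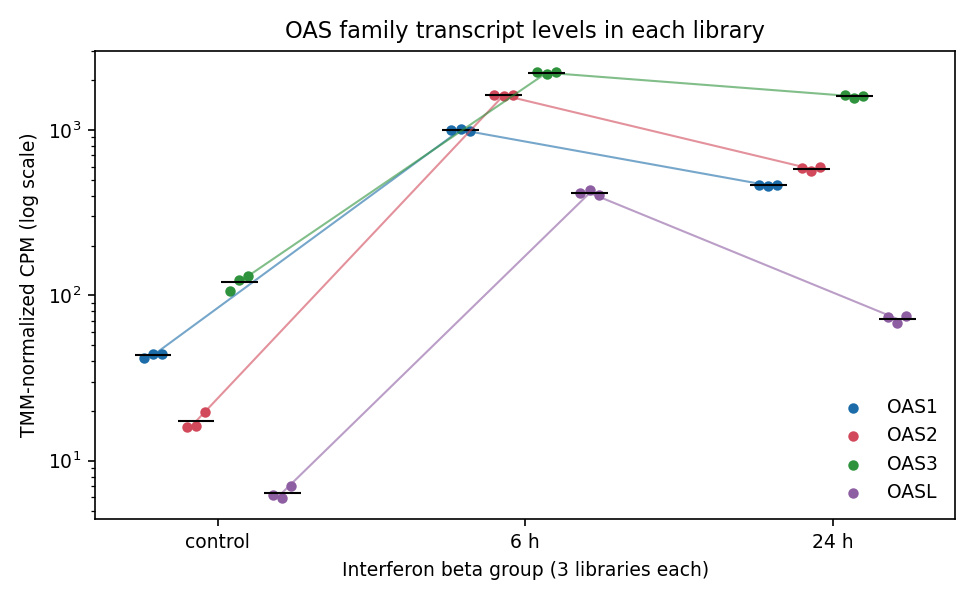
TMM-normalized CPM on a log axis of OAS1, OAS2, OAS3 and OASL in each of 9 libraries (points), with group means (black bars) joined by lines, in control, 6 h and 24 h groups. Every member was lowest in control and highest at 6 h, and at 24 h OASL stood at 67.7 to 74.6 CPM while OAS3 stood at 1561 to 1619 CPM.

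What remained after a day was asked by comparing the 24 h group with control. All 4 members were still higher than control, by 10.7-fold to 33.7-fold, and the groups did not overlap for any of them. At this time 24.7% of tested genes were called higher, 25.3% were called lower, and for 29.9% all 24 h libraries lay above all controls. OAS1 stood at 464, 458 and 465 CPM, a log2 fold change of 3.41 (SE 0.03). OAS2 stood at 588, 564 and 592 CPM, with 5.08 (SE 0.05). It was again the member with the largest fold change, at rank 22 of all tested genes. OAS3 stood at 1619, 1561 and 1605 CPM, with 3.73 (SE 0.05). OASL stood at 73.8, 67.7 and 74.6 CPM, with 3.50 (SE 0.07). By edgeR the adjusted p-values were 1.07e-18 for OAS1, 2.07e-18 for OAS2, 4.46e-17 for OAS3 and 1.70e-15 for OASL. OAS1, OAS3 and OASL, which had differed widely in fold change at 6 h, ranked 73, 55 and 64 at 24 h.

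The third comparison, 24 h against 6 h, asks how far each member came down. All 4 fell, in a comparison in which 30.6% of tested genes were called lower and 26.6% higher, and in which 32.4% had all 24 h libraries below all 6 h libraries, as all 4 members had. OASL fell furthest, to 17.3% of its 6 h level, which is -2.52 (SE 0.04) on the log2 scale and the 55th largest fall of all tested genes. OAS2 came down to 35.95% of its 6 h level, with -1.48 (SE 0.04), and OAS1 to 46.2%, with -1.11 (SE 0.03). OAS3 kept 72.0% of its 6 h level, with -0.47 (SE 0.04). The adjusted p-values by edgeR were 3.73e-16 for OASL, 5.49e-14 for OAS2, 1.44e-14 for OAS1 and 2.67e-07 for OAS3. The fall of OAS3 was not called in the deposited normalized table tested with limma (-0.20, SE 0.17, adjusted p = 0.377), which changes scaling and test together. With edgeR and scaling by library size alone it was -0.26 (SE 0.04) and was called. The median of all tested genes also moved, to 0.215 in the deposited table and 0.198 with library size alone, from -0.0186 with TMM factors. The order of the 4 falls was the same in the deposited table.

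**Figure D2:**
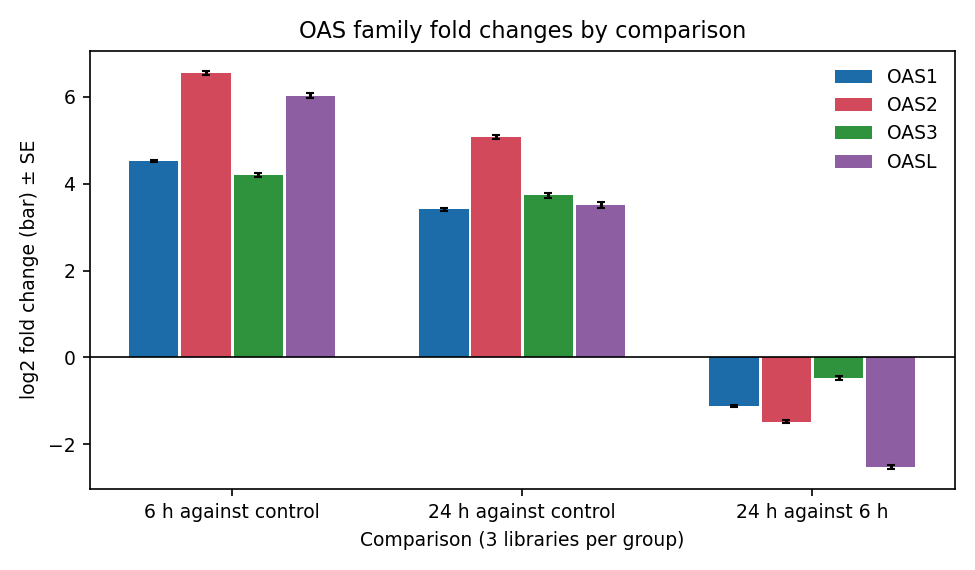
log2 fold changes (bars) with standard errors for OAS1, OAS2, OAS3 and OASL in the 3 comparisons, each between groups of 3 libraries. OAS2 has the tallest bar against control at both times, and OASL the deepest fall from 6 h to 24 h, at -2.52.

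Ratios of members within a library do not depend on how libraries are scaled. Each of the 6 pairs of members was therefore compared over the 3 groups by an exact permutation test of the log2 ratio of their counts (0.5 added, n = 3 libraries per group), with Benjamini-Hochberg adjustment over the 6 pairs. All 6 ratios differed between groups: the exact p was 0.00357, the smallest that 3 groups of 3 allow, for 5 pairs (adjusted p = 0.00429), and exact p = 0.025 (adjusted p = 0.025) for OAS1 against OASL. The members therefore did not keep their proportions.

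OAS2 gained on the other synthetases early. The log2 ratio of OAS2 to OAS3 was -2.79 ± 0.11 (mean ± SD, n = 3) in control, -0.45 ± 0.0040 at 6 h and -1.46 ± 0.016 at 24 h. In single libraries it lay between -2.92 and -2.72 in control and between -0.46 and -0.45 at 6 h, so that the 3 libraries at 6 h were nearly identical. The log2 ratio of OAS1 to OAS2 went from 1.33 ± 0.16 in control to -0.69 ± 0.034 at 6 h and -0.33 ± 0.027 at 24 h. OAS2 thus gained on both neighbours in its cluster at 6 h, with counts above those of OAS1 and still below those of OAS3, and gave part of that up by 24 h. The ratio of OAS1 to OAS3 moved less, from -1.46 ± 0.11 to -1.15 ± 0.037 and -1.79 ± 0.017.

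OASL rose and fell against the enzymes. The log2 ratio of OAS3 to OASL was 4.22 ± 0.13 in control, 2.41 ± 0.069 at 6 h and 4.47 ± 0.051 at 24 h. The ratio of OAS1 to OASL was 2.76 ± 0.13, 1.27 ± 0.032 and 2.68 ± 0.065. Its values at 24 h, 2.65, 2.76 and 2.64, fell inside the control range of 2.63 to 2.89, while all 6 h values lay below both groups. Against OAS2 the pattern was different: the ratio of OAS2 to OASL rose at each step, from 1.43 ± 0.062 to 1.96 ± 0.065 and 3.01 ± 0.038. Differences between 2 single groups were not tested, since 3 against 3 libraries cannot give an exact p under 0.1.

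Levels of different genes were compared per length, as CPM per kb of the union of each gene's GENCODE 29 exons. On that scale OAS3 was the highest member in control, at 14.6 ± 1.5 CPM per kb (mean ± SD, n = 3), followed by OAS1 at 8.77 ± 0.284, OAS2 at 2.77 ± 0.346 and OASL at 1.82 ± 0.160. At 6 h OAS3 and OAS2 were close, at 268 ± 3.86 and 258 ± 3.24 CPM per kb, with OAS1 at 202 ± 2.29 and OASL at 118 ± 3.98. At 24 h OAS3 stood alone at 193 ± 3.70 CPM per kb, OAS1 and OAS2 differed by less than their spread at 93.5 ± 0.738 and 92.8 ± 2.46, and OASL was lowest at 20.5 ± 1.07. The order depends on the length taken. A second length, chosen after seeing the data, was that of the transcript with the longest coding sequence of each gene. On it OAS1 came first, at 25.8, 594 and 275 CPM per kb in control, at 6 h and at 24 h. On that length OAS3 stood at 17.9, 330 and 237 and OAS2 at 5.96, 556 and 200 CPM per kb. OASL was the lowest member in all 3 groups on both lengths, at 1.96, 127 and 22.1 CPM per kb on the second. The deposited counts are per gene and do not tell which transcript of a gene was present.

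**Figure D3:**
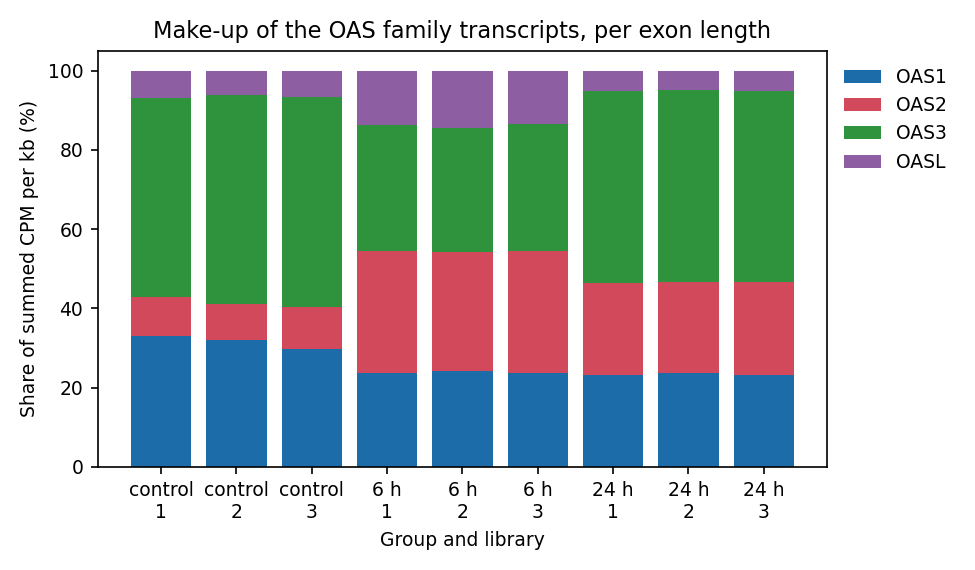
Share of each member in the summed CPM per kb of OAS1, OAS2, OAS3 and OASL (stacked bars, union of exons as length), in each of the 9 libraries. OAS2 made up 9.90% on average in control and 30.5% at 6 h, and OASL 13.96% at 6 h and 5.12% at 24 h; the shares depend on the exon length used.

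In all, reads of the 4 members were 0.0173% to 0.0205% of a control library, 0.481% to 0.484% of a 6 h library and 0.283% to 0.294% of a 24 h library. Within the summed levels per kb, the share of OAS3 was 52.1% ± 1.53 (SD, n = 3) in control, 31.7% ± 0.427 at 6 h and 48.3% ± 0.173 at 24 h. That of OAS2 was 9.90% ± 0.702, 30.5% ± 0.345 and 23.2% ± 0.191. The groups of 3 did not overlap for either gene.

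Of 3 genes that act on oligoadenylates or beside them, 1 was called higher than control at both times. It was also called lower at 24 h than at 6 h, and the other 2 passed in no comparison. The background was 17.5% of tested genes called higher at 6 h, 24.7% higher at 24 h and 30.6% lower between the times. AKAP7, an anchoring protein of protein kinase A with a form that is able to degrade oligoadenylates, had 2.76, 2.72 and 2.87 CPM in control, 10.2, 11.8 and 11.9 CPM at 6 h and 4.51, 4.70 and 4.91 CPM at 24 h. It rose by 2.03 (SE 0.11) at 6 h on the log2 scale, was still 0.76 (SE 0.12) above control at 24 h and fell by 1.27 between the times, all 3 called by edgeR (adjusted p = 9.18e-10, 7.93e-05 and 1.42e-08). No group overlapped another. The counts are per gene and do not tell its forms apart.

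PDE12, a phosphodiesterase that degrades oligoadenylates, and ABCE1, a ribosome recycling factor, did not pass in any comparison. PDE12 ranged from 70.6 to 76.9 CPM over all 9 libraries and ABCE1 from 134 to 149 CPM. Their log2 fold changes at 6 h were 0.04 (SE 0.04) and -0.02 (SE 0.04), and at 24 h 0.04 (SE 0.04) and 0.03 (SE 0.04). These calls changed elsewhere: at 24 h both were called higher in the deposited normalized table, at 0.47 each, and under scaling by library size alone, at 0.11 each. The latter also called ABCE1 lower at 6 h (-0.16). Medians of all tested genes at 24 h were 0.371 to 0.437 in the deposited table, by pseudocount, and 0.0821 with library size alone. At 6 h the median with library size alone was -0.145, so these values lay near a shift of all genes.

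**Figure D4:**
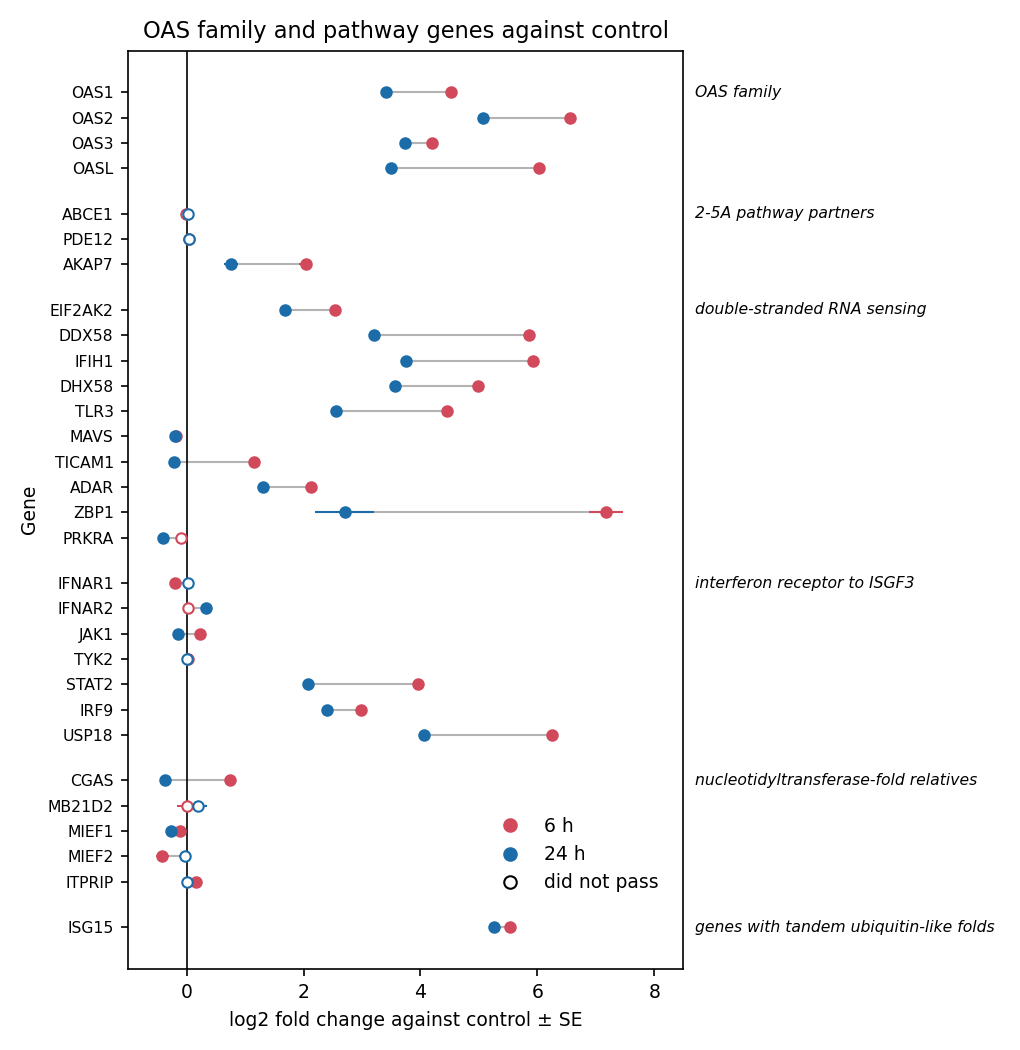
log2 fold change against control (points, with standard errors) at 6 h and 24 h for OAS1, OAS2, OAS3, OASL and the 26 tested genes of 5 pathway lists, 3 libraries per group; open points did not pass. The members and the RNA helicases lie between 3.21 and 6.55, while AKAP7 lies at 2.03 and 0.76 and ABCE1 and PDE12 near 0.

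Most genes of a list for the sensing of double-stranded RNA, which holds sensors, adaptors and regulators, rose with the synthetases. Of 10 genes on that list, 8 were higher, 1 lower and 1 not passed at 6 h, and their median was 3.49 on the log2 scale. Beside them, 17.5% of all tested genes were called higher and 15.4% lower, with a median of -0.0053. At 24 h 7 were higher and 3 lower with a median of 2.12. The background then was 24.7% higher and 25.3% lower, with a median of 0.0048. Between the times 0 were higher, 9 lower and 1 not passed, beside 26.6% of tested genes called higher and 30.6% lower. IFIH1, which encodes the helicase MDA5, and DDX58, which encodes RIG-I, rose at 6 h by 5.92 (SE 0.06) and 5.85 (SE 0.06), sizes close to the 6.03 of OASL. DHX58, the regulatory helicase LGP2, rose by 4.99 (SE 0.07), and TLR3, the endosomal receptor, by 4.45 (SE 0.06). EIF2AK2, the kinase PKR that halts translation, rose by 2.54 (SE 0.04), and ADAR, which edits double-stranded RNA, by 2.13 (SE 0.03). ZBP1, a sensor of Z-form nucleic acid, went from 1, 1 and 2 counts in control to 163, 282 and 407 at 6 h and 29, 9 and 19 at 24 h. With so few control counts the SE of its log2 fold change at 6 h, 7.18 (SE 0.29), can understate the error. ZBP1 passed the filter on low counts only through the 6 h libraries, where it was high. It is among the genes in the counts and medians above, where it adds no independent evidence. TICAM1, the adaptor of TLR3, rose by 1.15 (SE 0.04) at 6 h and was lower than control at 24 h, at -0.21 (SE 0.04). MAVS, the adaptor of the helicases, was slightly lower at both times, at -0.18 (SE 0.04) and -0.19 (SE 0.04). PRKRA, an activator of PKR, had -0.10 (SE 0.06) at 6 h, where it did not pass, and was lower at 24 h, at -0.41 (SE 0.06). In the deposited normalized table MAVS at 6 h (-0.02) was not called, and at 24 h MAVS, TICAM1 and PRKRA were not called and their values were positive, at 0.24, 0.22 and 0.03, below the median of all genes of 0.371. With scaling by library size alone PRKRA was called lower at 6 h (-0.24).

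The genes of the signal that drives the members were mixed. Of 7 genes from receptor to ISGF3, 4 were higher, 1 lower and 2 not passed at 6 h, and also at 24 h. Among all tested genes 17.5% were called higher and 15.4% lower at 6 h, and 24.7% and 25.3% at 24 h. The 1 lower gene is thus not more than that background at either time. Of the ISGF3 genes, STAT2 rose by 3.96 (SE 0.06) and IRF9 by 2.99 (SE 0.07) at 6 h, and by 2.07 (SE 0.06) and 2.40 (SE 0.07) at 24 h, against 6.55 and 5.08 for OAS2. USP18, the negative regulator at the receptor, rose by 6.26 (SE 0.05) at 6 h and 4.05 (SE 0.05) at 24 h. Of the receptor chains, IFNAR1 was lower at 6 h, at -0.20 (SE 0.04), and IFNAR2 higher at 24 h, at 0.33 (SE 0.05). JAK1 was higher at 6 h, at 0.22 (SE 0.03), and lower at 24 h, at -0.15 (SE 0.03), and TYK2 did not pass at either time, at 0.02 (SE 0.04) and 0.01 (SE 0.04). In the deposited normalized table the fall of IFNAR1 at 6 h (-0.04) and both changes of the kinase JAK1 (0.39 and 0.29) were not called. At 24 h that table called TYK2 (0.44) and IFNAR1 (0.46) higher, beside a median of all genes of 0.371. With library size alone TYK2 was called lower at 6 h (-0.12, median -0.145) and IFNAR1 higher at 24 h (0.10, median 0.0821). JAK1 at 24 h (-0.07) was not called there.

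Relatives that share the nucleotidyltransferase fold without being synthetases did not move as a group. Of 9 such genes 5 could be tested, and 2 were higher and 2 lower at 6 h, with values from -0.42 to 0.74. Of all tested genes 17.5% were called higher and 15.4% lower at that time. CGAS, the DNA sensor whose fold is close to that of OAS1, went from 21.8, 23.7 and 22.4 CPM in control to 35.0, 37.1 and 40.4 CPM at 6 h and 18.5, 18.2 and 15.96 CPM at 24 h. It was higher by 0.74 (SE 0.07) at 6 h and lower by edgeR at 24 h, at -0.37 (SE 0.07), but at 0.07 and not called in the deposited normalized table. Of the others MIEF1 and MIEF2, mitochondrial outer membrane proteins, were lower at 6 h, at -0.11 (SE 0.04) and -0.42 (SE 0.11), ITPRIP was higher at 0.15 (SE 0.05), and MB21D2 did not pass, with an SE of 0.16. None of these 3 calls at 6 h held throughout. That of MIEF1 ended with DESeq2 (-0.12), with 2 groups per fit (-0.11), with no filter on low counts (-0.09) and without control library 1 (-0.11), control library 3 (-0.09) or 6 h library 3 (-0.09), and the deposited normalized table gave 0.05, not called. That of MIEF2 ended in the deposited normalized table (-0.21) and without 6 h library 3 (-0.31). That of ITPRIP ended with DESeq2 (0.15), with scaling by library size alone (0.01), in the deposited normalized table (0.32) and without control library 2 (0.14) or 3 (0.14) or 6 h library 1 (0.13) or 2 (0.15). MAB21L1, MAB21L2, MAB21L3 and MAB21L4 had too few counts to test. ISG15, which like OASL carries paired ubiquitin-like folds, rose by 5.53 (SE 0.09) at 6 h and 5.25 (SE 0.09) at 24 h, and UBD, the other gene of this kind looked at, could not be tested. Whereas OASL fell by 2.52 between the times on the log2 scale, ISG15 fell by 0.28 (SE 0.06), a call that ended when libraries were scaled by size alone (-0.06) and in the deposited normalized table (-0.0018).

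No tested neighbour of the members on chromosome 12 changed against control by as much as the members rose. Of other genes that lie wholly within 500 kb of the OAS1-OAS3-OAS2 cluster, 23 were looked at, of which 8 were tested. At 6 h 0 of them were higher, 3 lower and 5 not passed, beside 17.5% of all tested genes called higher and 15.4% lower. Their log2 fold changes ran from -0.26 to 0.34. At 24 h 3 were higher, 2 lower and 3 not passed, with values from -0.51 to 0.58, beside a background of 24.7% of tested genes called higher and 25.3% lower. None reached a called 1.5-fold change against control, and IQCD, at 0.75 (SE 0.16) between the times, was the single one to do so there. Around OASL 36 other genes were looked at and 16 of them tested. At 6 h 2 were higher, 3 lower and 11 not passed, near the 17.5% and 15.4% of all tested genes. The single called change of at least 1.5-fold at 6 h was UNC119B, a carrier of lipid-modified proteins, at -0.66 (SE 0.04). At 24 h 4 were higher, 6 lower and 6 not passed. Among them ACADS, a mitochondrial acyl-CoA dehydrogenase, was higher at 0.68 (SE 0.08) and AC063943.3, with 110 counts over the control libraries and 54 over those at 24 h, was lower at -2.00 (SE 0.40). Between the times ACADS rose by 0.60 (SE 0.07) and AC063943.3 was called lower at -1.05 (SE 0.42). That last call ended without control library 2 or 3, 6 h library 1 or 2, or 24 h library 1 or 3, where the value lay from -1.06 to -0.50, and also with limma-voom (-0.83), library size alone (-0.84), 2 groups per fit (-1.03) and the deposited normalized table (-0.34). At 6 h AC063943.3 was not called (-0.95), but it was called lower without 6 h library 2 (-1.503), with limma-voom (-1.20), library size alone (-1.08), no filter on low counts (-0.93), a replicate block (-0.97) and the deposited normalized table (-0.45). Without 6 h library 3 ACADS was called higher at 6 h (0.20).

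**Figure D5:**
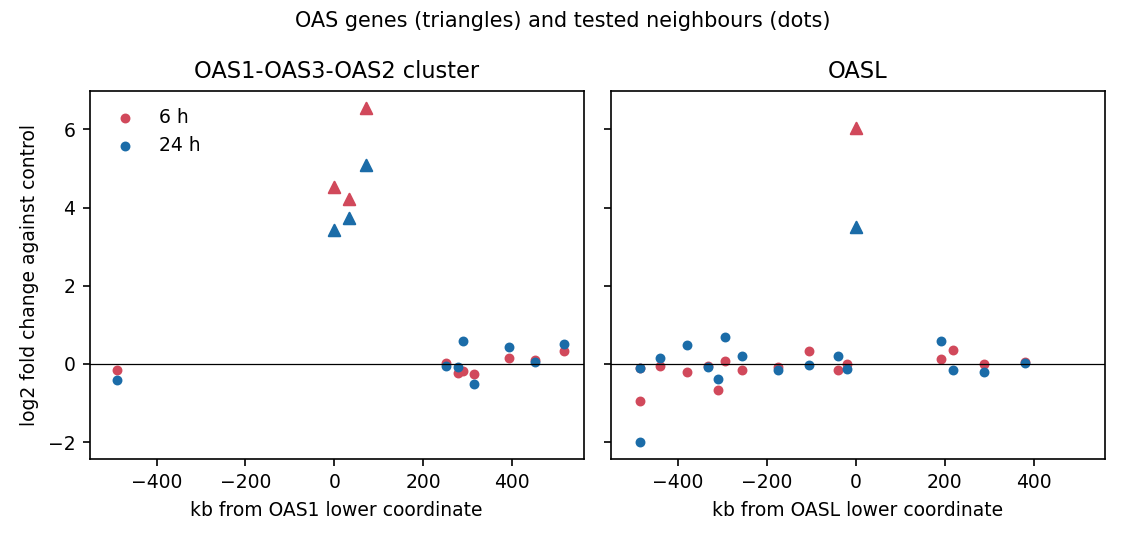
log2 fold change against control at 6 h and 24 h of the members (triangles) and of tested neighbours (dots), by distance in kb from the lower coordinate of OAS1 (left, 8 neighbours) or OASL (right, 16 neighbours). Members stand at 3.41 to 6.55, and tested neighbours lie between -2.00 and 0.68.

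Genes most alike in size and course of change were found by the root mean square difference over the 9 libraries of log2(CPM + 0.1). Each gene was taken relative to its own control mean, among 11484 other genes with at least 5 CPM on average. The difference is not scaled for the size of a rise, so it does not describe the time course alone. For OAS1 the nearest was TYMP, thymidine phosphorylase, with a difference of 0.0621 and levels of 7.05 ± 0.130, 157 ± 7.32 and 77.1 ± 2.16 CPM in control, at 6 h and at 24 h (mean ± SD, n = 3). The interferon regulatory factor IRF7 followed with a difference of 0.106. OAS3, at 0.267 from OAS1, was further from it than TYMP and IRF7. The third by this measure was MMP13, a collagenase, at 0.169, but it stood at only 0.353 CPM in control against 11.3 CPM at 6 h and 4.42 CPM at 24 h. It reached the minimum of 5 CPM on average only through the 6 h libraries, and the 0.1 added before the logarithm lowers its rise, fitted at 4.99 (SE 0.18) at 6 h against 4.53 for OAS1, so its place was not used. For OAS2 the nearest genes were XAF1, an antagonist of the apoptosis inhibitor XIAP, at 0.244, HERC6, a ubiquitin ligase family member, at 0.319 and IFIT3, an antiviral protein, at 0.386. XAF1 stood at 4.96 ± 1.55, 363 ± 21.5 and 154 ± 4.53 CPM. Its control mean was under the minimum of 5 CPM, which it passed only through the treated libraries, so its place is no independent evidence. No gene was as near to OAS2 as TYMP was to OAS1, and OAS2 was 1.51 from OAS1 and 1.55 from OAS3, its neighbours in the cluster. At 6 h OAS2 rose by 6.55 on the log2 scale, OAS1 by 4.53 and OAS3 by 4.21, and these distances include that difference in size.

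For OAS3 the nearest were TYMP at 0.241, IFI35, an interferon-induced protein, at 0.261 and HLA-B, a class I heavy chain, at 0.294. HLA-B had its highest level at 24 h, 620 ± 7.03 CPM against 532 ± 20.3 CPM at 6 h, unlike OAS3. For OASL the nearest were IFIH1 at 0.175, DDX58 at 0.198 and TRANK1, a large protein with ankyrin repeats, at 0.254. The 2 closest genes were thus both RNA helicases of the list for double-stranded RNA sensing. IFIH1 stood at 7.47 ± 0.930, 451 ± 14.6 and 100 ± 1.96 CPM and DDX58 at 12.3 ± 1.38, 709 ± 32.9 and 114 ± 2.93 CPM. TRANK1 stood at 4.18 CPM in control and passed the minimum of 5 CPM only through the treated libraries, so its place is no independent evidence. OASL was 0.856 from OAS1, 0.972 from OAS2 and 1.05 from OAS3. These differences describe the 9 libraries, which share their depth and scaling, and carry no test.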

How the data were processed

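Total RNA of 9 SUIT2 libraries was sequenced on an Illumina HiSeq 3000, per the labels' protocols. Alignment tools and build were STAR 2.7.8a, Partek and hg38, as the submitters' processing notes list them. The annotation release, counting and strand settings were not given in these sources. Deposited by the authors were estimated counts per gene, which need not be whole (16 of the members' 36 values lay over 0.1 from a whole number), and a TMM-normalized signal table with 0.0001 added to each count. Groups and replicate numbers came from the titles. In R 4.3.3, rounded counts with TMM factors entered edgeR 4.0.16 and its quasi-likelihood test, fitted once to all 9 libraries (6 residual degrees of freedom). A filter on low counts (minimum count 10, minimum total 15) left 16964 genes, and the threshold was 0.05 on the adjusted p over all of them. Each standard error was taken as the size of the fold change on the log2 scale over the root of its F statistic. Alternatives were DESeq2 1.42.0, limma-voom (limma 3.58.1), other scalings and filters, 2 groups per fit, unrounded counts, the deposited normalized table, a replicate block, a threshold of 0.01 and each library left out. Simulated counts were used to check the test. Members and lists were chosen with earlier results of these data known. Named were the members, 5 pathway lists with 31 genes, neighbours within 500 kb called at 1.5-fold or more, and the 3 most similar genes per member. A few other genes under that rule are not reported here. scipy 1.17.1 and matplotlib 3.10.9 were also used. Sequences are from RefSeq, gene models from GENCODE 29.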

Additional observations from a re-analysis of the deposited data

Results flagged for a closer look

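Values here are the log2 effect at 24 h minus that at 6 h, each against the same controls, for genes in which edgeR's test of that difference passed at an adjusted p under 0.05. The effect was smaller at 24 h for all 4 members, with OAS1 -1.11, OAS2 -1.48, OAS3 -0.47 and OASL -2.52. Among pathway genes the value came lower at 24 h for the partner AKAP7, at -1.27. On the list for double-stranded RNA sensing it came lower for DDX58 -2.64, IFIH1 -2.17, DHX58 -1.43, TLR3 -1.89, TICAM1 -1.36, EIF2AK2 -0.86, ADAR -0.82, ZBP1 -4.47 and PRKRA -0.31. The signalling genes and relatives that also came lower were STAT2 -1.89, IRF9 -0.59, USP18 -2.20, JAK1 -0.37, CGAS -1.11, ISG15 -0.28, MIEF1 -0.16 and ITPRIP -0.14. Those that came higher were IFNAR1 0.23, IFNAR2 0.31 and MIEF2 0.39. Of the neighbours, AC063943.3 came lower, with -1.05, and IQCD 0.75, UNC119B 0.28 and ACADS 0.60 came higher. Between the times OAS3 (-0.20), IRF9 (-0.31), JAK1 (-0.10), PRKRA (-0.04) and ISG15 (-0.0018) were not called in the deposited normalized table, nor PRKRA (-0.10) and ISG15 (-0.06) with library size alone. MIEF1 and ITPRIP changed sign in both and were not called. Single outlying libraries were not tested for, since the groups hold 3 libraries each.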

How the results depend on the processing

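Each member's fold change in each comparison was recomputed under 21 alternatives, and none changed direction or its side of the threshold except the fall of OAS3 from 6 h to 24 h. That value was no longer called in the deposited normalized table, at -0.2004 with a pseudocount of 1 and -0.2005 with 0.1, and the cause was not tested. Leaving out each library kept OAS1 at 6 h between 4.50 and 4.55, OAS2 between 6.5 and 6.66, OAS3 between 4.13 and 4.28 and OASL between 5.98 and 6.10. Scaling moved the median of all genes, to -0.145 at 6 h and 0.198 between the times with library size only, and to 0.134, 0.371 and 0.215 in the 3 comparisons of the deposited table. The deposited table was tested with limma, so scaling and test changed together there. Standard errors there were 0.16 to 0.17 for the members and larger for genes with few counts, such as 0.31 for ZBP1 with a pseudocount of 0.1. Among the pathway lists 4 genes lower at 6 h became 7 with library size only, 0 in the deposited table with either pseudocount and 2 to 4 without 1 library (2 without 6 h library 3). The 6 genes lower at 24 h became 0 in the deposited table, and the 3 higher between the times became 8 with library size only. With library size only values turned for TYK2 at 6 h (-0.12) and between the times for PDE12 (0.21), MAVS (0.20), TYK2 (0.21), MIEF1 (0.05977) and ITPRIP (0.07525). In the deposited table, with pseudocounts of 1 and 0.1, they turned at 24 h for MAVS (0.2406, 0.243), TICAM1 (0.219, 0.2257), PRKRA (0.03094, 0.03214), JAK1 (0.2882, 0.2896), CGAS (0.06812, 0.0713), MIEF1 (0.1668, 0.1684) and UNC119B (0.06436, 0.06569). There they turned also for MIEF1 at 6 h (0.05403, 0.05441) and between the times for MIEF1 (0.1128, 0.114) and ITPRIP (0.119, 0.1217). Another 51 values changed sign while called under neither setting. Same-numbered libraries deviated from their group means with correlations of -0.0588 to 0.0214, so the numbers were not taken to pair them. With a replicate block no member's call changed, and with groups permuted within replicate numbers the difference between groups in the ratio of OAS1 to OASL (1.416 from 6 h to 24 h) no longer passed (exact adjusted p = 0.0556), a design whose smallest p is 0.0278. Depth limits OASL most among the members, with 103 counts in its smallest control value.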
